A study of Mus musculus with 36 samples.

Results

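The Fcγ receptor genes of the mouse are followed here through RNA-seq libraries of RAW264.7 cells, a macrophage line derived from a mouse tumour induced with Abelson leukaemia virus. The members were taken by name and are 6 of the 49568 gene names in both count tables. They are the activating receptors Fcgr1, Fcgr3 and Fcgr4, the inhibitory receptor Fcgr2b, the signalling chain Fcer1g and the neonatal Fc receptor Fcgrt. All 6 passed the low-count filter in both tables.

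The study asked whether short peptides from the third hypervariable region of HLA-DRβ chains, one with the shared epitope (SE) that is associated with rheumatoid arthritis and one with a protective epitope (PE), alter how macrophages polarize. All libraries came from this single cell line, harvested at 72 h. Peptides were added at 100 µg/ml, together with IFNγ at 5 ng/ml (M1 condition) in one series or with Il-4 at 5 ng/ml (M2 condition) in the other. Each series held 3 arms of 6 libraries, namely PBS, SE and PE. The PBS libraries carry PBS as their treatment and name the cytokine of the series only in their titles. Replicates 1-3 and replicates 4-6 of each arm were named by different schemes (called label sets below) and are shown apart.

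Fcγ receptors bind the constant part of IgG and let macrophages take up and respond to antibody-coated targets. Fcgr1, Fcgr3 and Fcgr4 signal through the ITAM motif of the common γ chain, encoded by Fcer1g, which is phosphorylated by Src family kinases and recruits Syk. Fcgr2b carries an inhibitory ITIM motif of its own that recruits the phosphatase SHIP1 (Inpp5d), and the balance of activating to inhibitory receptors sets the threshold of the response to immune complexes. Fcgrt pairs with β2-microglobulin (B2m) and returns IgG from endosomes to the cell surface.

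Total counts per library ran from 20666573 to 63155889 in the IFNγ series and from 17049921 to 30639021 in the Il-4 series. The 6 macrophage markers were detected in every library and summed to 3231 to 9669 CPM (read counts scaled to the size of the library), whereas the highest of 18 markers of B, T, NK and mast cells, neutrophils and fibroblasts in any library was Klrb1c at 2.17 CPM. Of 6 IFNγ target genes, 6 were called higher than in PBS in SE+IFNγ replicates 1-3 and in PE+IFNγ of both label sets, with median log2 fold changes of 5.36, 5.24 and 5.25. In the libraries labelled SE+IFNγ, replicates 4-6, 0 of the 6 genes were called by edgeR or DESeq2 and 0 were at an unadjusted p under 0.05, with a median of -0.01. Gbp2, a GTPase gene induced by IFNγ, was at 200.5 ± 21.4 CPM (SD, n = 3) for SE+IFNγ replicates 1-3 and at 0.808 ± 0.0655 CPM in replicates 4-6, against 0.385 ± 0.0583 and 0.768 ± 0.169 CPM in PBS. Since Gbp2 was under 1 CPM in PBS, comparisons with PBS in the IFNγ series are read here as the cytokine and the peptide at once. Of the Il-4 target genes, 4 of 4 tested were called higher than in PBS in SE+Il-4 and PE+Il-4 of both label sets. Their list of 6 summed to 1.90 to 2.38 CPM in PBS replicates 1-3 of that series and 1.69 to 2.08 CPM in replicates 4-6. It summed to at least 49.36 CPM in every SE+Il-4 and PE+Il-4 library, so comparisons with PBS are read there in the same way. In bulk RNA, fewer cells of a kind and less RNA per cell cannot be told apart. The study describes its libraries as biological replicates drawn from independent experiments, while the labels do not say from which experiment or culture each library came, so the p-values measure the spread between these libraries.

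Promoter sequences are shown for the 4 genes on which the results turn, namely the pair that was higher with IFNγ (Fcgr1 and Fcgr4), the receptor that was lower in replicates 1-3 (Fcgr3) and the gene that was higher with Il-4 (Fcgrt). They were read from RefSeq on GRCm38.p6 and run 5′ to 3′ towards the start of transcription, up to 250 bases before it, with exonic bases removed. For Fcgr3 that start lies inside the span of the gene given below and is shared by 2 of its 4 annotated transcripts, and another transcript starts farther upstream. Capitals mark matches on either strand to TTCNNNGAA (the GAS element of IFNγ-induced genes), TTCNNNNGAA (the spacing preferred by STAT6), GAAANNGAAA (an ISRE-like element) or GAGGAA (a PU.1-like core, which can overlap the ends of the others).
Fcgr1: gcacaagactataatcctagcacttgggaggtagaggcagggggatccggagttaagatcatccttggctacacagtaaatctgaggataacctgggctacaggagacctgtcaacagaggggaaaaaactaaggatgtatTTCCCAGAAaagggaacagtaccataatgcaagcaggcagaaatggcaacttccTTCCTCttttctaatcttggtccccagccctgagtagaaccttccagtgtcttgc
Fcgr4: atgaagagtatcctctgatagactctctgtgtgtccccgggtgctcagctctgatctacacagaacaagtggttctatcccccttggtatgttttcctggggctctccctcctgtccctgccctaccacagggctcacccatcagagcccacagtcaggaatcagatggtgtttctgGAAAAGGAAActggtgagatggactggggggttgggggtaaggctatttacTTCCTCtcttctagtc
Fcgr3: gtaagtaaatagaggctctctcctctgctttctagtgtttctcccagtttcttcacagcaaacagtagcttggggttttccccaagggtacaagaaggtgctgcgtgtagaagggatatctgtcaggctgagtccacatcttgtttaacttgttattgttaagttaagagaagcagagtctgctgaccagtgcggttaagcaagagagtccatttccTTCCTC
Fcgrt: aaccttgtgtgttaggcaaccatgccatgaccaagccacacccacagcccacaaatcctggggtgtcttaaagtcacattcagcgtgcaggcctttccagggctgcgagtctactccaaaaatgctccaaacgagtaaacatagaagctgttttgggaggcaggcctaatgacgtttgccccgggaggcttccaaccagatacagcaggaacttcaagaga
These are chr3:96293970-96294219 on the minus strand, chr1:171018676-171018919 on the plus strand, chr1:171059404-171059626 on the minus strand and chr7:45103852-45104072 on the minus strand. The Fcgr1 window held a GAS match from 109 to 101 bases before the start and a PU.1-like match from 55 to 50. In the Fcgr4 window an ISRE-like match lay from 73 to 64 bases before the start and a PU.1-like match from 22 to 17. The Fcgr3 window held a PU.1-like match in its last 6 bases, and the Fcgrt window held no match to these letters. Over 32851 mouse promoter windows of 250 bases, 7.02% held the GAS letters, 5.85% the STAT6 spacing, 2.98% the ISRE-like letters and 23.3% the PU.1-like core.

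Fcgr2b, Fcgr3, Fcgr4 and Fcer1g lie together on chromosome 1, and Fcgr1 and Fcgrt on chromosomes 3 and 7 (GRCm38, GENCODE release M21). Fcgr4 (ENSMUSG00000059089) spans chr1:171018920-171029761 on the plus strand. Fcgr3 (ENSMUSG00000059498, chr1:171051174-171064935), Fcgr2b (ENSMUSG00000026656, chr1:170958617-170976547) and Fcer1g (ENSMUSG00000058715, chr1:171229572-171234365) lie on the minus strand. Fcgr1 (ENSMUSG00000015947) spans chr3:96282909-96293969 and Fcgrt (ENSMUSG00000003420) chr7:45092990-45103851, both on the minus strand. The extracellular parts of Fcgr2b and Fcgr3 are near-identical copies, so their unique read counts carry some uncertainty.

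Levels between genes were compared as CPM per kilobase of exon, over the union of the exons of all annotated transcripts. This length is 5790 bp for Fcgr2b (7 transcripts) and 1256 bp for Fcgr4 (1 transcript), so their order depends on it. By reads alone Fcgr4 stood below Fcgr2b, at 0.406 reads per Fcgr2b read in PBS replicates 1-3 of the IFNγ series. In PBS replicates 1-3 of the IFNγ series the order was Fcer1g (407 ± 9.77 CPM per kb, SD, n = 3), Fcgr3 (59.4 ± 6.95), Fcgr1 (36.1 ± 6.64), Fcgr4 (13.4 ± 2.43), Fcgr2b (7.16 ± 0.374) and Fcgrt (2.07 ± 0.00793). The signalling chain was thus the most abundant of the 6 per length, and it stood first in all arms and label sets of both series. Fcgr1 stood above Fcgr3 in SE+IFNγ replicates 1-3 and in PE+IFNγ of both label sets, with 109 ± 4.29 against 37.2 ± 0.805 CPM per kb in the first of these. Fcgr1 also stood above Fcgr3 in PBS replicates 4-6 of the IFNγ series, where they differed by less than the sum of their SDs (41.3 ± 11.8 and 36.5 ± 6.32 CPM per kb). Fcgr3 and Fcgr4 in PE+IFNγ replicates 1-3 were as close (35.3 ± 3.93 and 32.3 ± 3.22). In the Il-4 series Fcgr3 came second in every arm, and in replicates 4-6 Fcgr4 stood below Fcgr2b, at 4.57 ± 1.17 against 6.68 ± 0.310 CPM per kb in PBS. Neighbours in the order that differed by less than the sum of their SDs there were Fcgr2b and Fcgrt in replicates 1-3 of both peptide arms, Fcgrt and Fcgr4 in replicates 4-6 of both, Fcgr1 and Fcgr4 in SE+Il-4 replicates 1-3, and Fcgr3 and Fcgr1 in SE+Il-4 replicates 4-6.

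Against PBS, SE+IFNγ replicates 1-3 had 3 of the 6 genes called (2 higher, 1 lower), beside 21.2% of 16845 genes tested, and PE+IFNγ replicates 1-3 also had 3 (2 higher, 1 lower), beside 18.5%. A gene was called at an adjusted p under 0.05 (edgeR quasi-likelihood test, Benjamini-Hochberg over all genes) and a fold change over 1.5, and s.e. is the standard error of the log2 fold change. In replicates 4-6, 2 genes were called for PE+IFNγ, both higher, beside 11.2%, and 2 for the libraries labelled SE+IFNγ, 1 higher and 1 lower, beside 2.04%. Over the mean of both label sets PE+IFNγ had 2 genes called higher, beside 14.4%. The comparisons of SE and of PE with PBS share their PBS libraries.

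Fcgr1, the high-affinity receptor for IgG and a known IFNγ-induced gene, was higher than PBS in SE+IFNγ replicates 1-3 and in PE+IFNγ of both label sets. In PBS it stood at 73.95, 99.9 and 106 CPM for replicates 1-3, and at 83.1, 96.4 and 142 CPM for replicates 4-6. In SE+IFNγ it stood at 268, 289 and 286 CPM for replicates 1-3, and at 68.8, 65.9 and 67.8 CPM for replicates 4-6. In PE+IFNγ it stood at 258, 270.1 and 273 CPM and at 202, 204 and 197 CPM. Every library of the 3 sets with an IFNγ response was above every PBS library, while SE replicates 4-6 lay below every PBS library of their set, without overlap. The log2 fold change against PBS was 1.59 (s.e. 0.14, adjusted p = 1.93e-08) for SE and 1.51 (s.e. 0.14, adjusted p = 5.55e-08) for PE in replicates 1-3, and 0.91 (s.e. 0.14, adjusted p = 4.93e-05) for PE in replicates 4-6. For the libraries labelled SE+IFNγ, replicates 4-6, it was -0.67 (s.e. 0.14, adjusted p = 0.0113). PBS replicate 6 was the highest PBS library, and without it this last value was -0.41 (adjusted p = 0.0702). Averaged over the label sets, Fcgr1 was higher with PE by 1.21 (s.e. 0.10, adjusted p = 4.87e-09) on the log2 scale.

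Fcgr4, an activating receptor for IgG2a and IgG2b, moved in the same direction as Fcgr1 in the libraries with an IFNγ response. In PBS it was at 19.8, 17.1 and 13.7 CPM for replicates 1-3, and at 15.7, 15.02 and 14.02 CPM for replicates 4-6. In SE+IFNγ it was at 52.5, 50.5 and 51.95 CPM and, in replicates 4-6, at 17.8, 18.5 and 16.7 CPM. In PE+IFNγ it was at 35.96, 42.3 and 43.4 CPM and at 41.9, 47.9 and 38.04 CPM. SE replicates 1-3 and PE of both label sets sat wholly above PBS, and SE replicates 4-6 sat a little above their PBS libraries without overlap. The log2 fold change was 1.61 (s.e. 0.11, adjusted p = 4.37e-10) for SE and 1.27 (s.e. 0.11, adjusted p = 2.3e-08) for PE in replicates 1-3. PE gave 1.51 (s.e. 0.11, adjusted p = 2.29e-09) in replicates 4-6, where SE gave 0.24 (s.e. 0.12, adjusted p = 0.26) and was not called. The mean over both label sets for PE was 1.39 (s.e. 0.08, adjusted p = 1.71e-11).

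**Figure D1:**
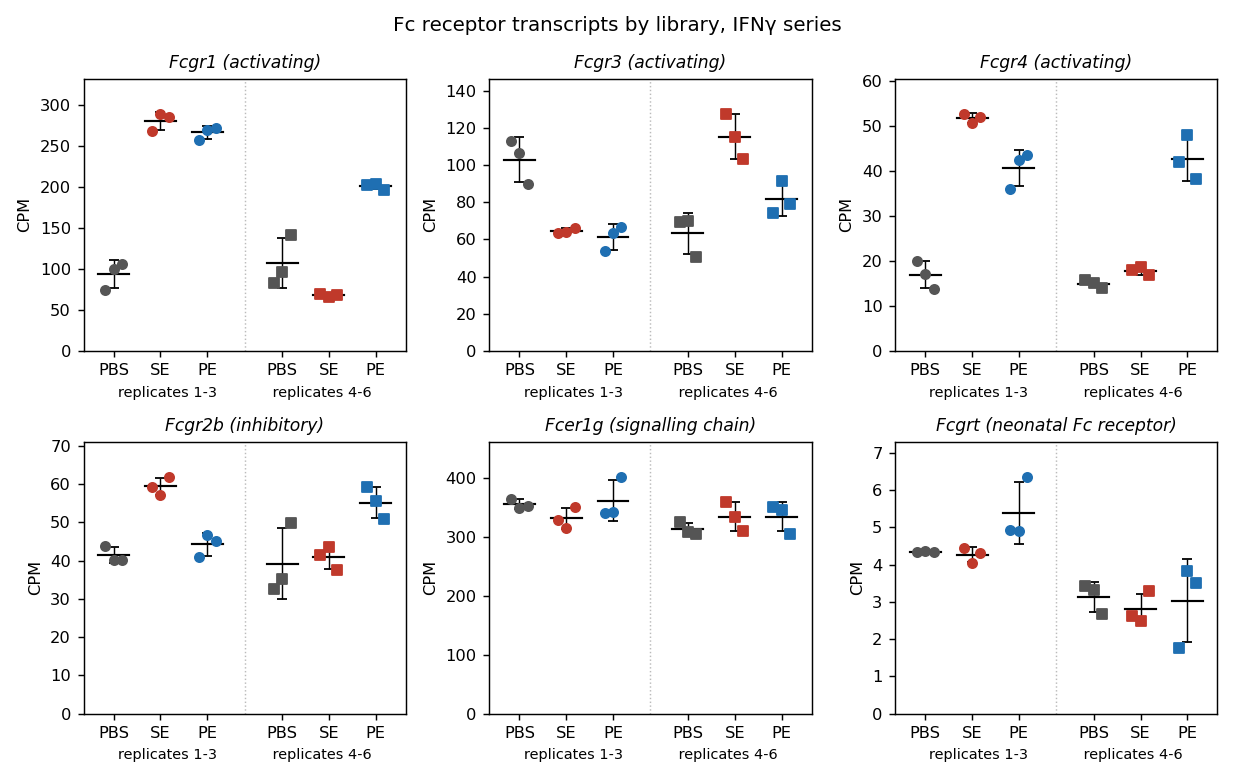
Level of each Fcγ receptor gene in the IFNγ series, in CPM, with a point per library, a bar at the mean and the SD as error bar (n = 3), for PBS, SE+IFNγ and PE+IFNγ in replicates 1-3 and 4-6. Fcgr1 in PE+IFNγ is at 197 CPM or above in all 6 libraries, and the SE+IFNγ libraries of replicates 4-6 are at 68.8 CPM or below.

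Fcgr3, the low-affinity activating receptor, was lower than PBS where Fcgr1 was higher in replicates 1-3. In PBS it was at 113, 106 and 89.7 CPM for replicates 1-3, and at 69.2, 70.2 and 50.7 CPM for replicates 4-6. In SE+IFNγ the values were 63.5, 64.2 and 66.2 CPM in replicates 1-3 and 128, 115 and 103 CPM in replicates 4-6. In PE+IFNγ they were 53.7, 63.6 and 66.8 CPM and 74.2, 91.7 and 78.9 CPM. Both peptide arms were below every PBS library of their label set in replicates 1-3 and above every one in replicates 4-6. In replicates 1-3 Fcgr3 fell, with a log2 fold change of -0.67 (s.e. 0.12, adjusted p = 0.000112) for SE and -0.75 (s.e. 0.12, adjusted p = 4.48e-05) for PE. In replicates 4-6 it rose in the libraries labelled SE+IFNγ by 0.87 (s.e. 0.12, adjusted p = 0.000765), and its value for PE was 0.37 (s.e. 0.12, adjusted p = 0.028), under the 1.5-fold threshold. The change with PE therefore differed between label sets, by 1.12 (s.e. 0.17, adjusted p = 0.000479). The macrophage markers moved with it, 5 of 6 called higher in this difference (median 0.71) and 0 lower, and their part in the result was not tested. Their summed level was 6153 to 7204 CPM in PBS, 4798 to 5265 in SE and 4154 to 4215 in PE of replicates 1-3, and 3663 to 5099, 6523 to 7381 and 5500 to 6252 CPM in replicates 4-6. Fcgr3 was the only one of the 6 genes for which the PE contrast passed this test of the difference, beside 11.5% of all genes, and its value over both sets was -0.19 (s.e. 0.08, adjusted p = 0.0747). Fcgr1 lay near the threshold of this test at -0.60 (s.e. 0.20, adjusted p = 0.0504), and was past it without PBS replicate 3, 4 or 5 (-0.71, -0.76 and -0.67). Fcgr2b passed it without PBS replicate 6 (0.61, adjusted p = 0.00281).

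Fcgr2b, the inhibitory receptor, was not called in any comparison within the IFNγ series that used a single label set. It was at 43.9, 40.1 and 40.3 CPM in PBS replicates 1-3 and at 32.7, 35.2 and 49.8 CPM in PBS replicates 4-6. In SE+IFNγ it was at 59.2, 57.2 and 61.8 CPM and at 41.5, 43.6 and 37.7 CPM in the label sets. In PE+IFNγ it was at 40.9, 46.6 and 45.2 CPM and at 59.2, 55.5 and 50.99 CPM. SE replicates 1-3 and PE replicates 4-6 were above their PBS libraries without overlap, and the other 2 sets overlapped with PBS. The log2 fold change was 0.52 (s.e. 0.11, adjusted p = 0.000846) for SE replicates 1-3 and 0.49 (s.e. 0.11, adjusted p = 0.00277) for PE replicates 4-6, each past the adjusted p but below 1.5-fold. It was 0.09 (s.e. 0.11, adjusted p = 0.547) for PE replicates 1-3 and 0.06 (s.e. 0.12, adjusted p = 0.849) for SE replicates 4-6. PBS replicate 6 was high for Fcgr2b, and without it PE replicates 4-6 reached 0.70 (adjusted p = 3.32e-06) and was called higher.

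The read ratio of each activating receptor to Fcgr2b sets the opposing receptors side by side within a library, and is given as a description. Fcgr1 reads per Fcgr2b read were 2.27 ± 0.516 in PBS (SD, n = 3), 4.73 ± 0.278 in SE+IFNγ and 6.04 ± 0.258 in PE+IFNγ in replicates 1-3. In replicates 4-6 they were 2.71 ± 0.153, 1.66 ± 0.146 and 3.65 ± 0.224. PE was thus the arm with the highest Fcgr1 ratio in both label sets. In replicates 4-6, however, the libraries labelled SE+IFNγ lacked the IFNγ response. In replicates 1-3 the log2 difference of SE from PE was 0.07 (edgeR, adjusted p = 0.767) for Fcgr1 and 0.43 (adjusted p = 0.0118) for Fcgr2b. Fcgr4 reads per Fcgr2b read were 0.406 ± 0.0579, 0.870 ± 0.0252 and 0.916 ± 0.0412 in PBS, SE and PE of replicates 1-3, and 0.396 ± 0.102, 0.432 ± 0.00989 and 0.772 ± 0.0804 in replicates 4-6. The Fcgr3 ratio went the other way in replicates 1-3, from 2.49 ± 0.228 in PBS to 1.09 ± 0.0292 in SE+IFNγ and 1.38 ± 0.0837 in PE+IFNγ. In replicates 4-6 it was 1.71 ± 0.601, 2.82 ± 0.226 and 1.48 ± 0.207, with the highest value in the libraries labelled SE+IFNγ. In replicates 1-3 the 3 activating receptors thus did not share a direction against the inhibitory receptor.

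**Figure D2:**
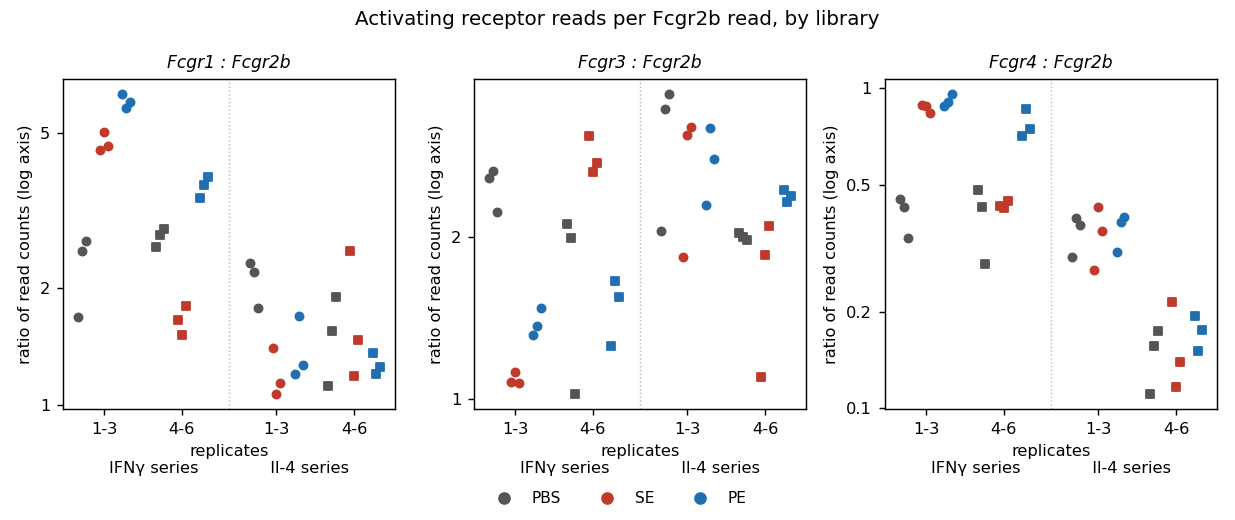
Ratio of Fcgr1, Fcgr3 and Fcgr4 read counts to Fcgr2b read counts in each library (log axis), by arm and label set, for both series. A point is a library, with circles for replicates 1-3 and squares for replicates 4-6. In the IFNγ series the Fcgr1 ratio is highest in PE+IFNγ replicates 1-3 (mean 6.04), and the Fcgr3 ratio is lowest in SE+IFNγ replicates 1-3 (mean 1.09).

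Fcer1g, the chain through which the activating receptors signal, ranged from 316 to 402 CPM over the 9 libraries of replicates 1-3 and from 305 to 359.6 CPM over those of replicates 4-6. Arms overlapped in every comparison. Its log2 fold changes in the 6 comparisons within label sets ran from -0.13 to 0.10, and the 95% intervals of all 6 lay between -0.29 and 0.26, so a 1.5-fold change was outside each of them. Fcgrt was at 4.34, 4.36 and 4.33 CPM in PBS, 4.43, 4.04 and 4.32 CPM in SE+IFNγ and 4.93, 4.90 and 6.34 CPM in PE+IFNγ in replicates 1-3. In replicates 4-6 it ranged from 1.75 to 3.84 CPM, which is 42 to 190 reads per library. The PE libraries of replicates 1-3 were all above PBS, at 0.31 (s.e. 0.19, adjusted p = 0.214), and no comparison of Fcgrt in this series was called. B2m, the partner chain of Fcgrt and the light chain of MHC class I, was called higher in all 3 sets with an IFNγ response, at 1.21 (s.e. 0.08, adjusted p = 2.01e-10) for SE replicates 1-3, 1.08 (s.e. 0.08, adjusted p = 1.67e-09) for PE replicates 1-3 and 0.92 (s.e. 0.08, adjusted p = 2.12e-08) for PE replicates 4-6.

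The direct comparison of SE with PE asked whether the peptides differ at the same cytokine and dose. In replicates 1-3, 0 of the 6 genes were called by edgeR, beside 5.33% of all genes, with 2 at an unadjusted p under 0.05 and 0 called by DESeq2. Fcgr4 was higher with SE by 0.35 (95% interval 0.13 to 0.57, adjusted p = 0.0261) and Fcgr2b by 0.43 (95% interval 0.19 to 0.66, adjusted p = 0.0118), both past the adjusted p with groups that did not overlap but below 1.5-fold. Fcgrt was lower with SE without overlap, at -0.34 (95% interval -0.74 to 0.06, adjusted p = 0.251). Fcgr1, Fcgr3 and Fcer1g overlapped between the peptides. The difference was 0.07 (95% interval -0.21 to 0.36, adjusted p = 0.767) for Fcgr1 and 0.08 (95% interval -0.17 to 0.33, adjusted p = 0.724) for Fcgr3, which leaves room for changes within these bounds. In replicates 4-6, where the libraries labelled SE+IFNγ lacked the IFNγ response, 2 genes were called lower with SE, beside 13.9%. Fcgr1 differed by -1.58 (95% interval -1.87 to -1.28, adjusted p = 5.23e-08) and Fcgr4 by -1.27 (95% interval -1.51 to -1.04, adjusted p = 3.79e-08). Fcgr3 at 0.50 (95% interval 0.25 to 0.75, adjusted p = 0.00309) and Fcgr2b at -0.43 (95% interval -0.67 to -0.19, adjusted p = 0.00649) passed the adjusted p alone. Without PE replicate 5 the Fcgr3 value was 0.59 (adjusted p = 0.00228) and was called.

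The change with SE+IFNγ differed between label sets for 4 genes. Against PBS, the SE+IFNγ change in replicates 4-6 minus that in replicates 1-3 was -2.25 (s.e. 0.20, adjusted p = 3.62e-08) for Fcgr1, -1.37 (s.e. 0.16, adjusted p = 1.29e-06) for Fcgr4 and 1.54 (s.e. 0.17, adjusted p = 6.95e-07) for Fcgr3. For Fcgr2b it was -0.46 (s.e. 0.16, adjusted p = 0.0305), which did not pass without PBS replicate 2, 3 or 6 or SE replicate 1, 3 or 6. The lowest of these values in size was -0.25 (adjusted p = 0.102), without PBS replicate 6. These 4 of 6 stand beside 35.7% of all genes past the same test. For SE against PE, Fcgr3 was at 0.42 (s.e. 0.17, adjusted p = 0.0686) and passed without SE replicate 6 or PE replicate 1 or 5 (0.50, 0.51 and 0.51) and with DESeq2 (0.44, adjusted p = 0.0485). By edgeR 3 of 6 genes differed between the label sets, beside 28.8%. They were Fcgr1 at -1.65 (s.e. 0.20, adjusted p = 2.87e-06), Fcgr4 at -1.62 (s.e. 0.15, adjusted p = 1.41e-07) and Fcgr2b at -0.86 (s.e. 0.16, adjusted p = 0.000437). The comparison of SE with PE for Fcgr1 and Fcgr4 thus depends on which label set is read.

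**Figure D3:**
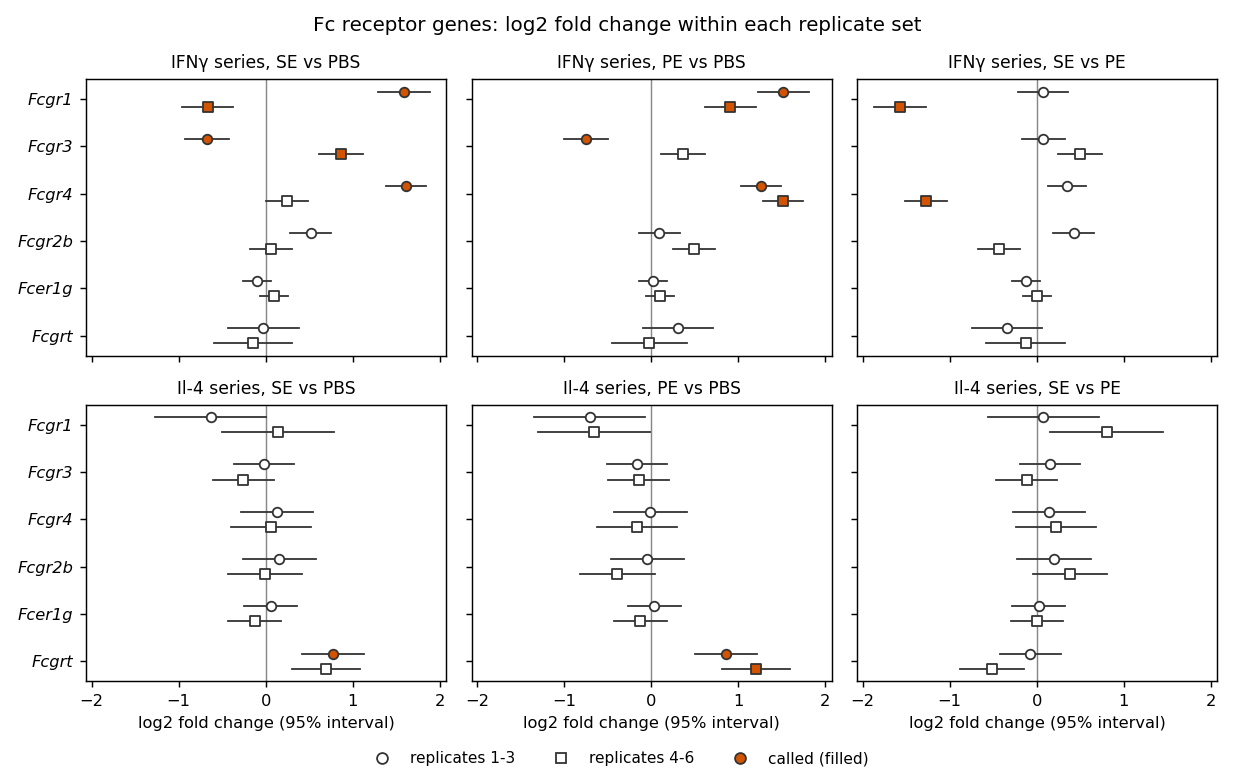
Log2 fold change of the 6 genes in each comparison within a label set, with 95% intervals from the edgeR fit, for the IFNγ and Il-4 series. Fcgr1 and Fcgr4 lie to the right of 0 in PE against PBS of the IFNγ series in both label sets, and in SE against PE of that series both genes lie far to the left of 0 in replicates 4-6 and near or right of 0 in replicates 1-3. Filled symbols are called. In the Il-4 series Fcgrt lies to the right of 0 in the 4 comparisons with PBS.

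Within label sets of the Il-4 series, Fcgrt was the only one of the 6 genes called. SE+Il-4 replicates 1-3 had 1 of 6 genes called, beside 6.17% of 14183 genes, and PE+Il-4 had 1 in each label set, beside 3.48% and 3.58%. Fcgrt stood at 9.84, 8.08 and 8.96 CPM in PBS replicates 1-3 and at 3.19, 3.73 and 4.65 CPM in PBS replicates 4-6. In SE+Il-4 it stood at 12.2, 17.2 and 16.8 CPM and at 4.93, 6.70 and 7.08 CPM. In PE+Il-4 it stood at 15.8, 16.4 and 16.4 CPM and at 8.25, 8.23 and 10.4 CPM. Each peptide arm lay above the PBS libraries of its own label set without overlap. The log2 fold change was 0.78 (s.e. 0.17, adjusted p = 0.00761) for SE and 0.85 (s.e. 0.17, adjusted p = 0.0069) for PE in replicates 1-3, and 1.20 (s.e. 0.18, adjusted p = 0.000806) for PE in replicates 4-6. For SE in replicates 4-6 it was 0.69 (s.e. 0.19, adjusted p = 0.0501), so 0 of 6 genes were called there by edgeR, beside 2.21%, with 1 at an unadjusted p under 0.05 and 1 called by DESeq2. Without PBS replicate 6 or SE replicate 4 this value was 0.85 (adjusted p = 0.0403 and 0.0329) and was called. Over both label sets Fcgrt was higher by 0.73 (s.e. 0.13, adjusted p = 0.00156) with SE, the only one of the 6 called, beside 3.1%. With PE it was higher by 1.03 (s.e. 0.12, adjusted p = 3.42e-05).

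Fcgr1 varied widely between libraries of the Il-4 series. It was at 149.6, 90.4 and 71.97 CPM in PBS replicates 1-3 and at 41.2, 62.3 and 74.1 CPM in PBS replicates 4-6. In SE+Il-4 it was at 99.5, 49.9 and 51.8 CPM and at 93.3, 47.6 and 55.6 CPM. In PE+Il-4 it was at 75.9, 61.05 and 54.1 CPM and at 40.9, 35.4 and 36.3 CPM. The arms overlapped except in PE replicates 4-6, which were all below PBS. Over both label sets Fcgr1 was called lower with PE, at -0.68 (s.e. 0.22, adjusted p = 0.0425), the other of 2 genes called, beside 4.38%. This call was lost with RLE size factors (-0.66, adjusted p = 0.052) and in 9 of 12 fits that left out a library, with adjusted p from 0.0224 to 0.117 over the 12. Those fits left out PBS replicate 1, 2, 5 or 6 or PE replicate 2, 3, 4, 5 or 6. For SE the values were -0.63 (s.e. 0.30, adjusted p = 0.178) and 0.14 (s.e. 0.30, adjusted p = 0.827) in the label sets, and the first was -1.03 (adjusted p = 0.0261) and called without SE replicate 1.

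The other receptors were not called against PBS in the Il-4 series. Fcgr3 was at 132, 142 and 149.7 CPM in PBS replicates 1-3 and 74.7, 80.3 and 77.2 CPM in replicates 4-6, and ranged from 115 to 149.7 and from 41.1 to 80.3 CPM over all arms of the label sets. Fcgr4 ranged from 13.8 to 19.95 CPM for replicates 1-3, against 4.06 to 8.02 CPM for replicates 4-6, without overlap between the sets. Their log2 fold changes in the 6 comparisons within label sets ran from -0.26 to 0.15 and from -0.17 to 0.22. Fcgr2b was at 64.6, 41.1 and 40.6 CPM in PBS, 70.8, 46.8 and 45.5 CPM in SE+Il-4 and 63.05, 36.03 and 42.8 CPM in PE+Il-4 in replicates 1-3, so replicate 1 was the highest in each arm. In replicates 4-6 the PE libraries, at 30.04, 29.5 and 28.96 CPM, were all below PBS, at 36.7, 40.2 and 39.2 CPM, with a log2 fold change of -0.39 (s.e. 0.20, adjusted p = 0.298). Fcer1g was at 510.01 to 710.1 CPM for replicates 1-3 and 208 to 306 CPM for replicates 4-6, with log2 fold changes of -0.13 to 0.06. Fcgr1 reads per Fcgr2b read were 2.10 ± 0.286 in PBS, 1.20 ± 0.179 in SE+Il-4 and 1.39 ± 0.267 in PE+Il-4 in replicates 1-3, and 1.52 ± 0.386, 1.72 ± 0.688 and 1.27 ± 0.0818 in replicates 4-6.

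**Figure D4:**
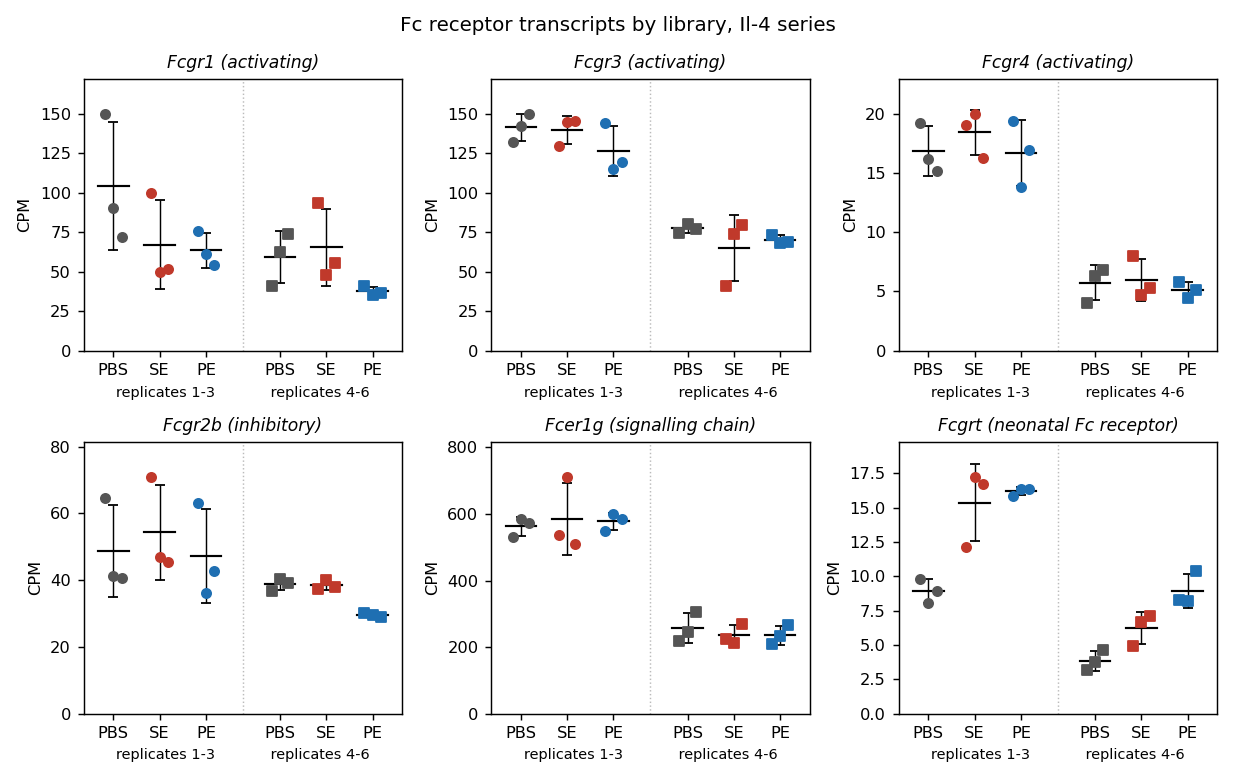
Level of each Fcγ receptor gene in the Il-4 series, in CPM, with a point per library, a bar at the mean and the SD as error bar (n = 3), for PBS, SE+Il-4 and PE+Il-4 in replicates 1-3 and 4-6. Fcgrt is higher in both peptide arms than in PBS of the same label set, with PBS at most 9.84 CPM and SE and PE at least 12.2 CPM in replicates 1-3.

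SE and PE were not told apart for these genes with Il-4 in the main fit. By edgeR 0 of 6 genes were called in replicates 1-3, in replicates 4-6 and over both, and 0 differed between label sets, beside 0%, 0%, 0% and 0% of all genes. DESeq2 also called 0 of 6 in each, and 0, 2, 1 and 0 of the 6 were at an unadjusted p under 0.05. Fcgrt was lower with SE than with PE without overlap, at -0.51 (95% interval -0.88 to -0.15, adjusted p = 0.385) in replicates 4-6, and differed by -0.08 (95% interval -0.43 to 0.27, adjusted p = 1) in replicates 1-3. The value for Fcgr1 was 0.80 (95% interval 0.16 to 1.45, adjusted p = 0.447) in replicates 4-6 and 0.08 (95% interval -0.56 to 0.71, adjusted p = 1) in replicates 1-3. These intervals are wide enough to hold a 1.5-fold difference for Fcgr1 in both label sets and for Fcgrt in replicates 4-6. Fcgr1 and Fcgr2b were higher with SE than with PE without overlap in replicates 4-6, Fcgr2b at 0.38 (edgeR, adjusted p = 0.594). With no low-count filter Fcgr1 was called in that comparison (0.80, edgeR, adjusted p = 6.14e-06). By the main edgeR fit and DESeq2, the change against PBS differed between label sets of the Il-4 series for none of the 6 genes. This held for SE (beside 4.39%) and for PE (beside 0.00705%), with 0 of 6 at an unadjusted p under 0.05 in each. With no low-count filter, Fcgr1 passed this test for SE (0.73, edgeR, adjusted p = 0.00885).

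PE libraries had the response to the cytokine in both label sets of both series, and their change against PBS was compared between the series in a model of all 36 libraries. In replicates 1-3, 2 of 6 genes differed, beside 18.1% of 17201 genes, with Fcgr1 at 2.20 (s.e. 0.35, adjusted p = 2.42e-05) and Fcgr4 at 1.26 (s.e. 0.22, adjusted p = 7.98e-05), both higher with IFNγ. In replicates 4-6, 4 of 6 differed, beside 16%. The IFNγ change minus the Il-4 change was 1.50 (s.e. 0.35, adjusted p = 0.00288) for Fcgr1, 1.61 (s.e. 0.24, adjusted p = 1.07e-05) for Fcgr4 and 0.82 (s.e. 0.24, adjusted p = 0.0175) for Fcgr2b. For Fcgrt it was -1.29 (s.e. 0.28, adjusted p = 0.00149), on the side of Il-4. The Fcgr2b value was 0.70 (adjusted p = 0.0677) without PBS replicate 4 of the IFNγ series and 0.74 (adjusted p = 0.0564) without PBS replicate 5. In replicates 1-3 Fcgrt differed by -0.56 (s.e. 0.26, adjusted p = 0.153) and Fcgr3 by -0.60 (s.e. 0.22, adjusted p = 0.0503), and Fcgr3 passed without PBS or PE replicate 3 of the IFNγ series or PE replicate 2 of the Il-4 series (adjusted p = 0.0348, 0.0302 and 0.0279). DESeq2 called Fcgr3 as well (adjusted p = 0.0286), for 3 of 6 genes. Since each series has its own count table, levels are not compared across them. Replicates 4-6 were named by a different scheme in each series, so the cytokine and the set cannot be told apart in that contrast.

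The signalling genes downstream of the receptors were read from 3 lists, of 8 Src and Syk family kinases, 15 adaptors and enzymes and 10 inhibitory molecules, all 33 of which were tested in both series. Against PBS, SE+IFNγ replicates 1-3 had 6 higher and 3 lower (27.3%) of the 33 called, beside 21.2% of all genes. PE+IFNγ had 1 higher and 5 lower (18.2%) in replicates 1-3, beside 18.5%, and 6 higher and 3 lower (27.3%) in replicates 4-6, beside 11.2%. Median log2 fold changes over the 33 were -0.01, -0.14 and 0.11, beside -0.04, -0.04 and -0.001 over all genes. With Il-4 there were 2 higher and 3 lower (15.2%) and 2 higher and 1 lower (9.09%) for SE in the label sets, beside 6.17% and 2.21%, and 0 higher and 2 lower (6.06%) and 1 higher and 4 lower (15.2%) for PE, beside 3.48% and 3.58%. In the libraries labelled SE+IFNγ, replicates 4-6, 0 of the 33 were called by edgeR and 1 by DESeq2, with 16 at an unadjusted p under 0.05, beside 2.04% of all genes called. SE against PE had 4 higher and 0 lower (12.1%) in replicates 1-3, beside 5.33%, and 3 higher and 6 lower (27.3%) in replicates 4-6, beside 13.9%. Called genes went in both directions in 7 of the 12 comparisons within label sets. By list, SE+IFNγ replicates 1-3 had 2 kinases higher and 1 lower, 2 adaptors or enzymes higher and 2 lower, and 2 inhibitory molecules higher.

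Among the kinases, Lyn, which phosphorylates both ITAM and ITIM motifs, rose by 0.78 (s.e. 0.07, adjusted p = 2.93e-08) in SE+IFNγ replicates 1-3 and by 0.84 (s.e. 0.07, adjusted p = 1.85e-08) in PE+IFNγ replicates 4-6. With Il-4 Lyn fell in replicates 1-3, at -0.70 (s.e. 0.11, adjusted p = 0.00114) for SE and -0.67 (s.e. 0.11, adjusted p = 0.00204) for PE. Syk, the kinase recruited by the phosphorylated ITAM, was lower in PE+IFNγ replicates 1-3 at -1.15 (s.e. 0.09, adjusted p = 3.86e-09) and higher with SE than with PE in replicates 1-3, at 0.86 (s.e. 0.09, adjusted p = 1.98e-06). In replicates 4-6 it was higher by 0.90 (s.e. 0.09, adjusted p = 1.33e-07) in the SE-labelled libraries, which lacked the IFNγ response, than in PE libraries, which had it. Fgr, another Src family kinase, was lower than PBS in replicates 1-3 with SE at -0.79 (s.e. 0.19, adjusted p = 0.0018) and with PE at -1.19 (s.e. 0.19, adjusted p = 4.68e-05).

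Among the adaptors, Lat, a scaffold of receptor signalling complexes, was lower with IFNγ at -2.36 (s.e. 0.34, adjusted p = 9.01e-06) for SE replicates 1-3, -2.85 (s.e. 0.35, adjusted p = 2.22e-06) for PE replicates 1-3 and -2.76 (s.e. 0.41, adjusted p = 3.9e-05) for PE replicates 4-6. With Il-4 it was higher in SE at 1.31 (s.e. 0.34, adjusted p = 0.0169) and 2.25 (s.e. 0.43, adjusted p = 0.00833) in the label sets. Gab2, an adaptor that recruits phosphoinositide 3-kinase, was higher in SE+IFNγ replicates 1-3 than in PBS, at 1.47 (s.e. 0.10, adjusted p = 2.61e-10), and than in PE, at 0.90 (s.e. 0.10, adjusted p = 2.81e-06). Inpp5d, the phosphatase recruited by Fcgr2b, rose in PE+IFNγ replicates 4-6 by 0.62 (s.e. 0.07, adjusted p = 6.06e-07) and fell in PE+Il-4 replicates 4-6, at -0.70 (s.e. 0.18, adjusted p = 0.0343). Ptpn6, the phosphatase SHP-1, rose in PE+IFNγ replicates 4-6 by 0.66 (s.e. 0.09, adjusted p = 1.34e-05). Dok3, an inhibitory adaptor, was lower with Il-4 in replicates 4-6, at -0.88 (s.e. 0.17, adjusted p = 0.00764) for SE and -0.81 (s.e. 0.17, adjusted p = 0.00763) for PE.

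Of 6 receptors and chains that also signal through ITAM motifs, Trem2, Oscar, Tyrobp, Clec4e and Clec4n were called in some comparison. Against PBS, SE+IFNγ replicates 1-3 had 1 of the 6 called higher and 3 lower, beside 21.2% of all genes called. PE+IFNγ had 0 and 4 in replicates 1-3, beside 18.5%, and 1 and 2 in replicates 4-6, beside 11.2%. The libraries labelled SE+IFNγ, replicates 4-6, had 1 and 1, beside 2.04%. SE against PE had 2 higher in replicates 1-3, beside 5.33%. These were Clec4n at 1.29 (s.e. 0.20, adjusted p = 0.000115) and Clec4e, the lectin Mincle, at 0.90 (s.e. 0.14, adjusted p = 0.000208). In replicates 4-6 SE against PE had 1 higher, beside 13.9%, which was Trem2 at 1.22 (s.e. 0.15, adjusted p = 2.72e-06). Trem2, a lipid-sensing receptor that pairs with Tyrobp, was lower with IFNγ at -1.66 (s.e. 0.15, adjusted p = 2.43e-08) for SE replicates 1-3, -1.53 (s.e. 0.15, adjusted p = 1.07e-07) for PE replicates 1-3 and -0.66 (s.e. 0.15, adjusted p = 0.00214) for PE replicates 4-6. Tyrobp, the ITAM adaptor also called DAP12, was lower in replicates 1-3 at -0.63 (s.e. 0.09, adjusted p = 6.72e-06) for SE and -0.61 (s.e. 0.09, adjusted p = 1.23e-05) for PE, where Fcer1g was not called. Oscar, an osteoclast-associated receptor that pairs with Fcer1g, was lower than PBS in SE+IFNγ replicates 1-3 and PE+IFNγ of both label sets, from -2.41 to -1.78, and at -1.66 (s.e. 0.34, adjusted p = 0.00966) in the libraries labelled SE+IFNγ, replicates 4-6, which lacked the IFNγ response. Clec4n, the lectin Dectin-2, which also pairs with Fcer1g, was higher than PBS in SE+IFNγ replicates 1-3 at 0.69 (s.e. 0.19, adjusted p = 0.00573), in PE+IFNγ replicates 4-6 at 0.96 (s.e. 0.19, adjusted p = 0.000868) and in the libraries labelled SE+IFNγ, replicates 4-6, at 0.77 (s.e. 0.20, adjusted p = 0.0316). It was lower in PE+IFNγ replicates 1-3 at -0.60 (s.e. 0.20, adjusted p = 0.0218). It was also lower with Il-4 in SE replicates 1-3 at -1.41 (s.e. 0.21, adjusted p = 0.000647) and in PE of both label sets, at -1.88 (s.e. 0.21, adjusted p = 5.05e-05) and -1.68 (s.e. 0.24, adjusted p = 0.00045), and Clec4e was lower in SE+Il-4 replicates 1-3 at -0.89 (s.e. 0.23, adjusted p = 0.0159). Of 11 other immunoglobulin receptors, only Fcrl1 and Trim21 passed the count filter. Trim21, a cytosolic antibody receptor, was higher in PE+IFNγ replicates 4-6 by 0.64 (s.e. 0.13, adjusted p = 0.00106), and Fcrl1, an Fc receptor-like gene known from B cells, was higher in SE+IFNγ replicates 1-3 by 0.72 (s.e. 0.08, adjusted p = 4.85e-07). Fcrl1 was lower than PBS in PE+Il-4, at -0.72 (s.e. 0.15, adjusted p = 0.00923) in replicates 1-3 and -0.66 (s.e. 0.15, adjusted p = 0.0148) in replicates 4-6. Trim21 was lower in the libraries labelled SE+IFNγ than in PE in replicates 4-6, at -0.78 (s.e. 0.14, adjusted p = 0.000188).

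Of the tested genes between or directly beside the chromosome 1 members, only 1 was called in a comparison within a label set. Sdhc, a subunit of succinate dehydrogenase, had log2 fold changes of -0.58 to 0.41 in the 6 comparisons within label sets of the IFNγ series. Tomm40l ran from -0.12 to 0.18, Cfap126 from -0.43 to 0.28 and Gm2962 from -0.26 to 0.28, and none of these 4 was called there or in the Il-4 series. The SE+IFNγ change against PBS did differ between label sets for Sdhc (0.65, adjusted p = 8.98e-05). Gm26110, a small nuclear RNA gene of 165 bp within Fcgr4 on the same strand, had 3 to 58 counts per library in replicates 1-3 of the IFNγ series and 580 to 1619 in replicates 4-6. With Il-4 it had 0 counts in replicates 1-3 and 5 to 20 in replicates 4-6. It was the gene called, lower in SE+IFNγ replicates 1-3 at -1.71 (adjusted p = 0.0367), a comparison in which Fcgr4 was higher. Mir6546, a microRNA gene within Fcgr3, had 0 counts in replicates 1-3 of the IFNγ series and 14 to 86 in replicates 4-6. Whether reads of these small RNA genes enter the counts of the receptors was not tested.

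Genes with the most similar pattern to each member were named by Pearson's r of log2 CPM, centred within label set, over the 18 libraries of a series, which share their depth and scaling, and r is given as a description. Among 9098 genes of the IFNγ series, Fcgr1 was most like Cd40 (r = 0.995), Fam171b (0.990) and Ifi202b (0.987), and Fcgr4 was most like Entpd1 (0.985), Tspo (0.983) and Clec7a (0.982). Fcgr3 was most like Ctss (0.943), which encodes cathepsin S, Ncf1 (0.924) and Lyz2 (0.922). Fcgr2b was most like Eps15 (0.907), Fcer1g like Mterf4 (0.795) and Fcgrt like Lzts2 (0.870). Among 8761 genes of the Il-4 series, Fcgrt was most like Anxa6 (0.950), Clec10a (0.944), a lectin gene, and Yipf1 (0.910). There Fcgr1 was most like Rnf185 (0.963), Fcgr3 like Calhm2 (0.919), Fcgr2b like Pi4k2a (0.891), Fcer1g like Hacd2 (0.881) and Fcgr4 like Ifitm6 (0.880). The nearest genes differed between members and between series.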

How the data were processed

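RNA of 36 RAW264.7 libraries was sequenced. The deposited values are raw read counts per gene, which per the study's methods and labels the authors made from single-end TruSeq libraries (a stranded mRNA kit in the study's methods, the RNA kit in the labels) with featureCounts (Rsubread) on GENCODE M12, counting uniquely aligned reads; the submitters' processing notes name GRCm38.p5, R 3.4.1 and DESeq2 1.16.1. The aligner and the strand setting of the counting are not given in the sources used here, so reads of overlapping or antisense genes (15 and 30 counts in all for the antisense gene Gm38204 at Fcgr2b) cannot be told apart from those of the members. Columns of the IFNγ and Il-4 tables were mapped to samples by the label given in each sample's description (36 of 36). No pair of libraries held the same counts.

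The counts as deposited were fitted per table with edgeR 4.0.16 (quasi-likelihood test, TMM, filterByExpr, R 4.3.3), with a mean for each arm and label set, and p-values were adjusted over all genes tested (Benjamini-Hochberg). A gene was called at an adjusted p under 0.05 and over 1.5-fold, and a difference between comparisons at the adjusted p alone. DESeq2 1.42.0 was an alternative. CPM used TMM-scaled totals. Total depth sets the precision of each value, and a count of 0 allows 3 counts; both cover counting error only. The fitting script was tested on simulated data. All 6 members were tested in every comparison, and pathway genes were named only where called and at most 5 per list. The 3 most similar genes were taken by Pearson's r at 10 CPM or more on average. The members and lists were chosen with earlier results of these data known. Same-numbered libraries deviated together in every pair (r over 0.1) in 2 of 12 comparisons, SE with PE of Il-4 replicates 1-3 (r 0.143 to 0.389) and PBS with PE of Il-4 replicates 4-6 (0.19 to 0.395), so those were also read with the replicate number as a block. In Il-4 replicates 1-3, same-numbered pairs were also all positive for PBS with SE (0.0988 to 0.264) and PBS with PE (0.0814 to 0.191), partly under 0.1. The block was fitted for these and all other comparisons too. Alternatives were another size factor, other count filters, no fold threshold, the block, DESeq2, each label set alone, and each library left out. Some genes of the lists and of the locus are not reported here by name.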

Additional observations from a re-analysis of the deposited data

Results flagged for a closer look

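In the Il-4 series, Fcgr2b of PBS replicate 1 stood apart from the other 5 PBS libraries, with a gap of 0.798 of the group's range on the log2 CPM scale, and Fcgr2b of SE+Il-4 replicate 1 did so with 0.649, both above Dixon's 95% critical value for 6 libraries. These were 2 of 36 groups tested. A chance rate of about 1 in 20 groups holds for independent libraries of a single population, whereas each group here pools both label sets. Both flags fell on replicate 1, which was also the highest Fcgr2b library in PE+Il-4 (63.05 CPM). Whether the arms share an effect of that replicate was not tested.

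The change against PBS differed between label sets for SE+IFNγ (replicates 4-6 minus replicates 1-3, log2 scale, edgeR) in Fcgr1 (-2.25), Fcgr3 (1.54), Fcgr4 (-1.37) and Fcgr2b (-0.46), and for PE+IFNγ in Fcgr3 (1.12). SE against PE with IFNγ differed between label sets in Fcgr1 (-1.65), Fcgr4 (-1.62) and Fcgr2b (-0.86). The SE values rest on the libraries labelled SE+IFNγ, replicates 4-6, in which 0 of 6 IFNγ target genes were called higher than PBS. The label set and any difference in how the sets were handled cannot be told apart.

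The change of PE against PBS differed between the IFNγ and Il-4 series in replicates 1-3 for Fcgr1 (2.20) and Fcgr4 (1.26). In replicates 4-6 it differed for Fcgr1 (1.50), Fcgr4 (1.61), Fcgr2b (0.82) and Fcgrt (-1.29). Replicates 4-6 were named differently in each series, so the cytokine and the set cannot be told apart there.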

How the results depend on the processing

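Values are counts of the 6 genes called, unless said otherwise, and no called value changed sign under any alternative; 112 of 2184 values for single genes changed sign, none of them called. Without a fold threshold the count was 4 for SE+IFNγ against PBS in replicates 1-3 and 3 for PE+IFNγ over both label sets, with Fcgr2b gained in both. It was 4 for PE+IFNγ against PBS in replicates 4-6, and 2 and 4 for SE against PE with IFNγ in replicates 1-3 and 4-6. The difference between label sets for PE+IFNγ (1 gene) was 2 with RLE size factors, a minimum of 10 counts, the replicate block or DESeq2, and 3 with no low-count filter, where Fcgr1 passed in all 5. SE+IFNγ against PBS in replicates 4-6 (2 genes) had 1 with the label set fitted alone, as Fcgr1 had -0.66 (adjusted p = 0.0552, edgeR). SE+Il-4 against PBS in replicates 4-6 (0 genes) had 1, Fcgrt, under RLE, no filter, 10 counts, the block and DESeq2 (adjusted p from 0.0103 to 0.0441). PE+Il-4 over both label sets (2 genes) had 1 under RLE. With no filter, Fcgr1 also passed in the Il-4 series, for counts of 2 (SE and PE against PBS, replicates 1-3, and PE, replicates 4-6), 1 (SE, difference between label sets) and 1 (SE against PE, replicates 4-6). Fcgr3 was gained in the difference between the series in replicates 1-3 under RLE, no filter, 10 counts, the block and DESeq2 (adjusted p from 0.0066 to 0.0434), and in the SE against PE difference between label sets with IFNγ under no filter (0.00611) and DESeq2 (0.0485). The cause of these changes was not tested.

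Leaving out each library in turn gave 1 to 2 for SE+IFNγ against PBS in replicates 4-6 and 3 to 4 for its difference between label sets, 2 to 3 and 1 to 2 for PE+IFNγ, and 2 to 3 and 3 to 4 for SE against PE. In the Il-4 series it gave 1 to 2 and 0 to 1 for SE against PBS in replicates 1-3 and 4-6, and 1 to 2 for PE over both sets. Between the series it gave 2 to 3 and 3 to 4.

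The block changed no call of the 6 genes in the 2 comparisons where numbers paired the libraries (Fcgrt in PE+Il-4 replicates 4-6 was 1.22), while the genes called there went from 508 to 780 in PE+Il-4 replicates 4-6 and from 0 to 0 in SE against PE. Elsewhere it took Fcgr2b from the SE+IFNγ difference between label sets (-0.45, adjusted p = 0.058). Genes called also moved in SE+Il-4 replicates 4-6 (313, against 512 with DESeq2 and 743 with the block), PE+Il-4 replicates 1-3 (493, against 763 with the block) and the differences between label sets of SE+Il-4 (622, against 1492 and 2679) and PE+Il-4 (1, against 137 and 221). In SE+Il-4 replicates 1-3 they went from 875 to 1152 with the block. For SE against PE with Il-4, edgeR called 0 genes in replicates 1-3, replicates 4-6, their mean and their difference, DESeq2 0, 42, 18 and 0, and 570, 1321, 1314 and 444 genes were at an unadjusted p under 0.05. Fcgrt had 42 to 418 counts per library, which limits its precision.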
